A study of Mus musculus with 45 samples.

Results

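The change in gene expression between the newborn and the adult heart ventricle was followed on 12 of the 45 microarrays of a mouse heart development series, 6 of adult ventricles and 6 of ventricles taken 3 days after birth (day 3). The arrays were chosen by their labels, and all 18193 genes measured on them were compared. All tissue came from wild type mice of the CD1 strain. The adult group held 3 left and 3 right ventricle samples of adult mice, whose age the labels do not give, and the day 3 group held 3 left and 3 right ventricle samples of newborn mice. Each sample is described as coming from 1 heart, and hearts of both stages were frozen and pulverised before extraction. A left and a right sample with the same number are called a heart below, although the labels do not state that they came from the same animal. The other 33 arrays, from embryonic stem cells to ventricles shortly before birth (E18.5, named by embryonic day), entered the fit and a comparison of step sizes.

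In the weeks after birth, heart muscle cells of the mouse largely stop dividing and grow by enlargement. They take fetal isoforms of contractile proteins out of use, build transverse tubules and a mature calcium release system, and turn from glucose and lactate to fatty acids and ketone bodies as fuel. The matrix between the cells is remodelled over the same time, and resident immune cells settle in the tissue.

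Values are log2 intensities normalized by RMA, a method that brings all arrays to one distribution, so a value of 1 in a difference is a 2-fold change. Both ventricles with one number were averaged to 1 value per heart, differences are adult minus day 3 (n = 3 hearts per stage), and errors are standard errors (SE) of the limma fit. Genes were called at a Benjamini-Hochberg adjusted p under 0.05 over all 18193 genes. No detection calls were used, so where one stage read near or below the array medians of 5.35 to 5.47, its signal was not shown to be above background and the difference is given as read, with no rank. Because tissue pieces were measured, fewer cells of a type and less RNA per cell cannot be told apart. The ventricular muscle genes Myl2, Myl3, Tnnt2 and Actn2 were bright at both stages. Myl2, the ventricular myosin light chain, read 14.99, 14.97 and 14.99 in adult hearts and 15.06, 15.07 and 15.04 at day 3, close to the top of the scale.

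Some arrays stood apart. The adult right ventricle of heart 3 had high values of atrial muscle genes: Myl7, the atrial myosin light chain, read 12.86 there, against 5.59 to 9.79 on the other adult arrays, and the calcium pump inhibitor gene Sln read 11.35, against 4.17 to 7.09. The adult right ventricle of heart 2 had 203 genes more than 2-fold above both other adult right ventricles, where each of the other 11 arrays had 0 to 56 genes as far above the other replicates of its own group. Among them were the cartilage-type matrix gene Cilp, at 10.44 against 5.21 to 7.62 on the other adult arrays, and the fat cell hormone gene Adipoq, at 9.40 against 3.67 to 7.92. Number 2 also differed in sex-linked genes. Xist, the RNA of the inactive X chromosome, read 10.25 and 10.79 in adult heart 2 and 10.63 and 10.45 in day 3 heart 2, against 5.28 to 6.48 on the other 8 arrays. The Y-linked gene Eif2s3y read 3.53 and 2.85 in adult heart 2, against 8.66 to 8.98 in the other adult hearts. In day 3 heart 2 it read 8.26 and 8.03, against 9.62 to 9.79 in the other day 3 hearts, so Xist and Y-linked signal were present together in a sample labelled as 1 heart. These genes were picked after their values were seen. Counts are given below without the right ventricles of adult hearts 2 and 3, or without number 2 of both stages, where this moved a printed count by more than 1.5 times or changed the sign of a median. Downward, the right and left ventricles of adult heart 1 had 73 and 54 genes more than 2-fold below both other replicates of their group. Each other array had 0 to 38. Adult arrays also varied more than day 3 arrays: the median SD over genes was 0.162 in adult left and 0.178 in adult right ventricles, against 0.107 and 0.111 at day 3. The 3 prime minus 5 prime difference of the beta-actin control probe sets, a measure of RNA quality, was 0.455 to 0.96 on adult arrays and 0.698 to 0.84 at day 3.

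**Figure D1:**
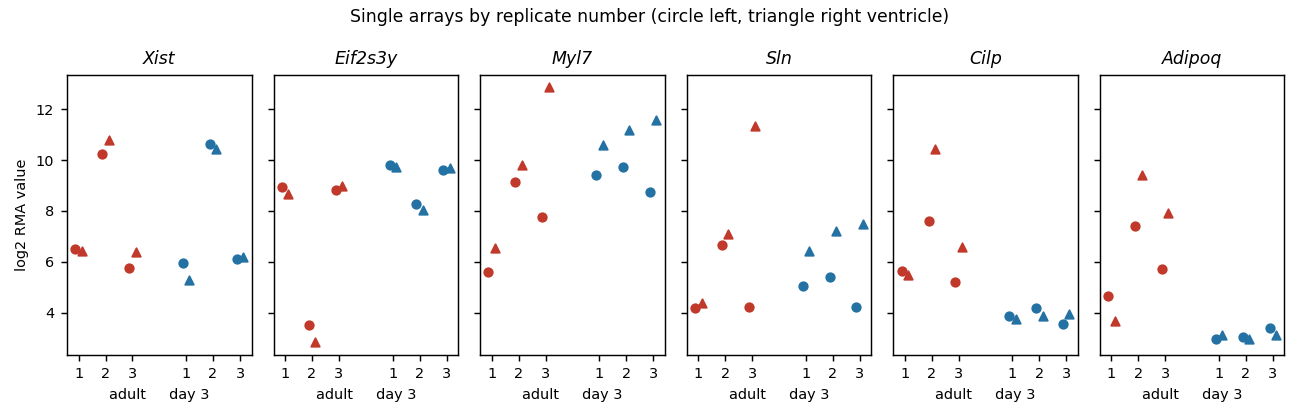
Log2 RMA values of 6 genes on the 12 arrays, by stage and replicate number, with circles for left and triangles for right ventricles. Xist was high in number 2 of both stages, Eif2s3y was low in adult number 2 and intermediate in day 3 number 2, and Myl7 and Sln were highest in the adult right ventricle of heart 3.

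Of 18193 genes, 8872 were called between the adult and day 3 (48.8%). In the adult 4066 were higher (22.3%) and 4806 lower (26.4%). At least 2-fold, 721 were higher (3.96%) and 1108 lower (6.09%). The 6 adult and 6 day 3 arrays did not overlap for 6173 genes (33.9%). The adult arrays lay above in 2556 of these, and below in 3617 (19.9% of all genes). The split of directions depended on the scale. When each array was scaled to the mean of 25 housekeeping genes, of which 18 were called lower in the adult, the median of all genes moved to 0.33, against 0.03 without this scaling. Then 13515 genes were called, 79.3% of them higher, against 45.8% before. The counts of each gene list are therefore also given after this scaling, as scaled counts, and 15 genes called on both scales changed direction. A scaled count is to be read beside all 18193 genes, of which 10723 were higher and 2792 lower on that scale.

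Among the 8 steps between successive stages, the step to the adult had 1829 genes called and at least 2-fold changed (10.1%). Day 3 against E18.5, the step before it, had 285 (1.57%). The steps to E7.5 and E8.5, which joined different tissues, had 2119 (11.6%) and 1919 (10.5%), and the step to E9.5 had 528 (2.9%), to E12.5 909 (5.0%), to E14.5 188 (1.03%) and to E18.5 505 (2.78%). The stages were not equally far apart in time, and the adult and day 3 were the only groups made from frozen single hearts.

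**Figure D2:**
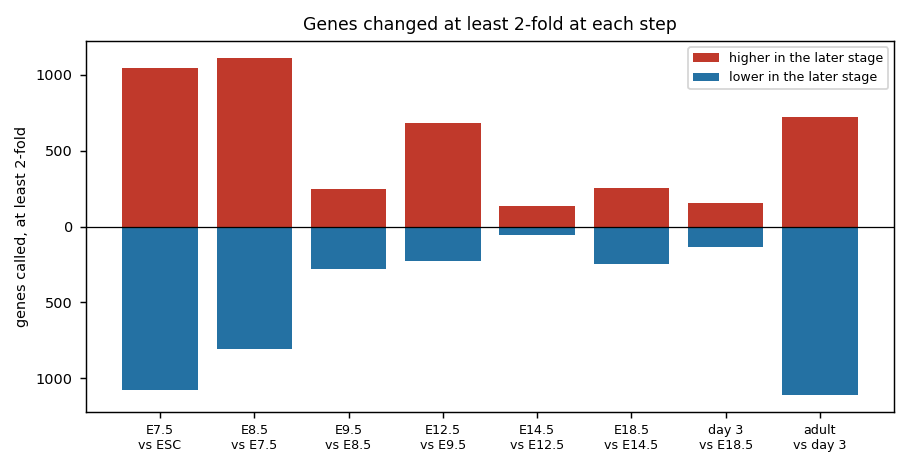
Number of genes called and changed at least 2-fold at each step between successive stages, with genes higher in the later stage above 0 and lower ones below. The step from day 3 to the adult had 721 genes higher and 1108 lower.

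Cell division genes fell. Of 39 measured DNA replication genes, all 39 fell, and of 46 genes of mitosis and cytokinesis 43 fell, with a median difference of -2.01 and -3.90, against 0.03 over all genes. Scaled counts were 37 lower for replication, and 43 lower and 3 higher for mitosis. Cdca8, a subunit of the complex that steers chromosome attachment in mitosis, read 5.09, 5.29 and 5.29 in adult hearts, against 10.67, 10.81 and 10.62 at day 3. It fell by 5.48 (SE 0.09, adjusted p = 8.7e-23). Rrm2, the small subunit of ribonucleotide reductase, read 6.03, 7.09 and 6.32 in adult hearts and 12.25, 12.17 and 12.10 at day 3, a 51.7-fold fall. Mki67, a marker of dividing cells, fell by 4.20, the mitotic kinase gene Cdk1 by 4.83 and the cyclin gene Ccna2 by 4.89. For each of these genes every adult array lay below every day 3 array. The helicase genes Mcm5 and Mcm2 fell by 3.71 and 2.90. The 3 mitosis genes that were not called were Cenpf (0.04), Cit (0.13) and Kif15 (0.25). They were named after their values were seen, and 1 other probe set each of Cenpf and Cit was called lower.

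Cyclins and their kinases were lower for 22 of 27 members (scaled, 20 lower and 4 higher). The members that rose were Ccng1, a target of p53, by 1.19 (SE 0.09), and Tfdp2, a partner of E2F factors, by 1.07. Ezh2, the methyltransferase of the polycomb complex in dividing cells, fell by 3.09, while its relative Ezh1 rose by 0.90. Ezh1 was the only member to rise among 22 chromatin genes of dividing cells, of which 20 fell (19 scaled). Of 17 cell cycle inhibitor genes 8 fell and 4 rose. With housekeeping scaling 7 fell and 6 rose, and their median changed sign. Cdkn2d and Cdkn2c, inhibitors of the G1 kinases, fell by 1.61 and 1.32, and Cdkn2b rose by 0.79. Meis1, a factor known to restrain the division of mouse heart muscle cells after birth, fell by 0.43 (SE 0.15, adjusted p = 0.022). This call was lost without adult heart 3 (adjusted p = 0.11), without day 3 heart 1 (0.0768) and with housekeeping scaling (0.446). It was also lost in the right ventricle alone (0.0761) and with the mean of all probe sets (0.371). Division genes were nearly level over the preceding step, as the mean over the mitosis list was 9.36 at E18.5, 9.35 at day 3 and 5.69 in the adult.

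The promoters of these genes carry letters known from cell cycle control. Shown are 80 bases around the match nearest the transcription start, for 4 genes of the mitosis list with large falls. All 4 hold TTTGAA, the core of the cell cycle homology region, on either strand, in capitals. The sequences are RefSeq's on GRCm38.p6, on the gene's strand.
Cdca8: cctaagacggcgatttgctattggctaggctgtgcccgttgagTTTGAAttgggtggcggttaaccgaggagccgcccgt
Ube2c: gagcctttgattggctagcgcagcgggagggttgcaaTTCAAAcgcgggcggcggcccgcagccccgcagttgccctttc
Spc25: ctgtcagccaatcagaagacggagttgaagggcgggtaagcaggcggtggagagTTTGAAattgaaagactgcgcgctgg
Hmmr: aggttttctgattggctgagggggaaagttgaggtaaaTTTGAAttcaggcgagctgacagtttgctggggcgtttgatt
They lie at chr4:124936868-124936947 (minus strand), chr2:164769863-164769942 (plus), chr2:69206164-69206243 (minus) and chr11:40733388-40733467 (minus). In windows from 250 bases before to 50 after the start, TTTGAA stood in 30 of 40 mitosis genes with a window (75.0%) and 4 of 31 replication genes (12.9%), against 2263 of 14452 measured genes with a window (15.7%). Of the genes with it, which include these 30 mitosis genes, 8.09% fell at least 2-fold, against 6.17% of all genes with a window. The letters TTTCCCGC, TTTCGCGC, TTTGCCGC or TTTGGCGC, forms of the E2F site, stood in 14 of 31 replication genes (45.2%) and 3 of 40 mitosis genes (7.5%), against 3.81% of all. Of the 550 genes with such letters, which include these 14 replication and 3 mitosis genes, 14.7% fell at least 2-fold. Stretches of 3 replication genes that fell and hold such letters follow, with all matches on either strand in capitals.
Mcm5: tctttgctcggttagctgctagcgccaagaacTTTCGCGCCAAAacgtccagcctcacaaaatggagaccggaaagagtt
Cdt1: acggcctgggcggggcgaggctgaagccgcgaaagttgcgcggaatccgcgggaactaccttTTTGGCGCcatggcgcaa
Cdc6: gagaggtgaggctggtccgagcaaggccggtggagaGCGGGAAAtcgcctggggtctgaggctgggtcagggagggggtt
They lie at chr8:75109324-75109403, chr8:122567985-122568064 and chr11:98907977-98908056, all on the plus strand. In Mcm5 2 matches overlap. A match in letters is a description and not a binding site.

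Imprinted growth genes, expressed from 1 parental copy and known for control of fetal growth, fell for 15 of 25 members and rose for 3 (scaled, 14 lower and 6 higher). Mest read 7.61, 7.55 and 7.76 in adult hearts, against 11.93, 12.07 and 11.99 at day 3. Igf2, the fetal insulin-like growth factor, read 8.92, 9.16 and 9.51 in adult hearts and 13.12, 13.03 and 13.05 at day 3, and fell by 3.87 (SE 0.15, adjusted p = 2.5e-16). Slc38a4, an amino acid transporter, and Plagl1, a transcription factor, fell by 4.25 and 3.50. Impact, a regulator of translation, went the other way by 1.83. The growth hormone receptor gene Ghr rose by 1.16, and Igf1 fell by 0.82 (adjusted p = 0.023) with overlapping arrays. The Igf1 call was lost without adult heart 1 or 3 or day 3 heart 2 or 3 (adjusted p = 0.053 to 0.105) and with housekeeping scaling (0.112). It was also lost in the right ventricle alone (0.242) and with the mean of all probe sets (0.0745). Igf2bp3 (0.09) and Lin28b (-0.26) were not called. Of the 6 probe sets of Igf2bp3, 5 others were called lower.

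**Figure D3:**
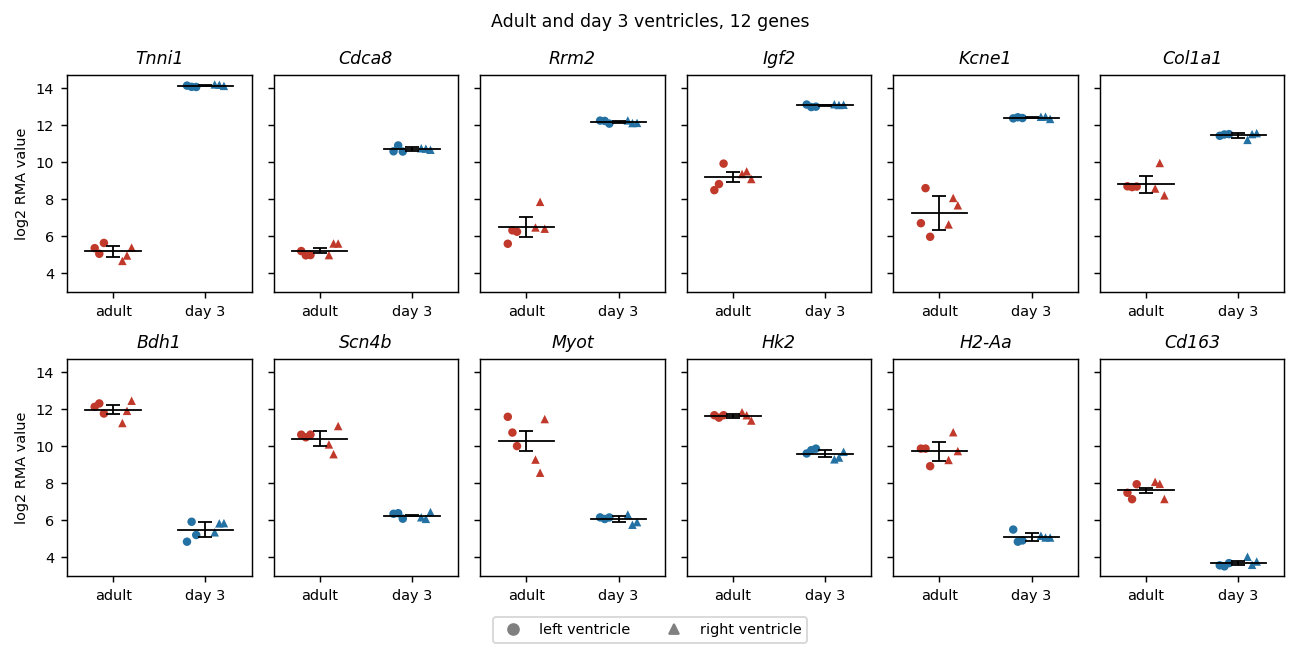
Log2 RMA values of 12 genes on the 6 adult and 6 day 3 arrays, with the mean of the 3 hearts (line) and its SD (bar). In each of the 12 genes the adult and day 3 arrays did not overlap, as was so for 33.9% of all genes.

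In the contractile apparatus a few isoforms moved far, while 21 of 40 sarcomere and Z-disc genes were not called. Tnni1 is the troponin I form that mouse ventricles use before birth. It read 5.01, 5.00 and 5.51 in adult hearts, against 14.16, 14.12 and 14.09 at day 3, a difference of -8.95 (SE 0.19, adjusted p = 4.4e-21), with the adult values at or near the array medians. The cardiac form Tnni3 was at 14.64 in each adult heart and between 14.36 and 14.40 at day 3, 0.26 higher in the adult (adjusted p = 0.037, and 0.0654 to 0.0876 without any 1 heart). Tnni3 was also not called in the right ventricle alone (0.0827) or without number 2 (0.116). Myh7, the slow myosin of the fetal heart, read 11.03, 11.84 and 11.10 in adult hearts and 12.15, 12.30 and 12.61 at day 3, and fell by 1.03. Myh6, the fast adult myosin, was higher by 0.30 (adjusted p = 0.038). This call was lost without adult heart 1 or 3 or day 3 heart 1 or 2 (adjusted p = 0.0713 to 0.112). It was also lost in single ventricles (0.255 left, 0.0538 right), with the mean of all probe sets (0.316) and without number 2 (0.0963). Acta1, the skeletal actin, rose by 1.60 (SE 0.17), while the cardiac actin Actc1 (0.02) and titin, Ttn (0.25), were not called. A list of 20 genes of fetal heart isoforms also held Actc1, Des and Nebl, and smooth muscle genes such as Acta2 and Tagln. Of its members 10 fell and 4 rose (scaled, 9 and 6), which is not a count of fetal isoforms alone. Among the falls were the atrial light chains Myl4 and Myl7, Myl7 at -1.59. With only adult and day 3 values in the fit their adjusted p was 0.069 for Myl4 and 0.192 for Myl7, and without adult heart 1 Myl7 was at -0.31 and not called. In the right ventricle alone neither was called (0.165 for Myl4, 0.164 for Myl7). Myl7 was also not called without day 3 heart 2 (0.0731) or with the replicate block (0.0976).

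Of 40 sarcomere and Z-disc genes 16 rose and 3 fell (scaled, 33 and 3). The largest rise was that of Myot, myotilin of the Z-disc, at 10.43, 9.65 and 10.74 in adult hearts and 6.24, 5.91 and 6.03 at day 3. Cmya5, a partner of the sarcomere and calcium release sites, rose by 2.80, the thin filament gene Lmod2 by 1.87 and the titin cap Tcap by 1.82. Outside the list, Mylk4, a myosin light chain kinase gene, rose by 4.85 (SE 0.15). Myoz1, a Z-disc gene of fast skeletal muscle, fell by 1.31.

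Among calcium handling and transverse tubule genes 14 of 35 rose and 8 fell (scaled, 21 and 8). The scaled share that rose was near that of all genes on that scale. Ryr2, the calcium release channel, read 12.78, 12.60 and 12.67 in adult hearts, against 11.03, 11.12 and 11.26 at day 3, and rose by 1.54 (SE 0.15, adjusted p = 5.1e-09). Hrc, a calcium binding protein of the sarcoplasmic reticulum, rose by 1.77 and Cacna1c, the L-type calcium channel, by 1.09. Cacna1g, a T-type channel of the fetal heart, fell by 0.99. The calcium pump Atp2a2 rose by 0.32, near the top of the scale, and its inhibitor Pln (0.27, adjusted p = 0.10) was not called.

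Of 24 potassium, sodium and pacemaker channel genes 11 rose and 4 fell (scaled, 14 and 1), and without number 2 10 rose and 2 fell. Here too the scaled share that rose was near that of all genes. Scn4b, a sodium channel beta subunit, read 10.36, 10.02 and 10.86 in adult hearts and 6.25, 6.23 and 6.26 at day 3. The potassium channel genes Kcnj3, Kcnd2 and Kcnd3 rose by 3.23, 2.81 and 2.40. Kcne1, the beta subunit of the slow delayed rectifier, fell most: it read 6.67, 8.33 and 6.82 in adult hearts, against 12.41, 12.44 and 12.36 at day 3, a 35.0-fold fall. Kcnj2 read 3.29 to 3.54 in all 6 hearts, where its probe set is too dim to compare. Of 26 intercalated disc and gap junction genes 9 rose and 5 fell (scaled, 16 and 4, near the shares of all genes on that scale). Gja1, the main gap junction gene of the ventricle, was not called (0.08), and Gjc1, the connexin of early heart tissue, fell by 1.42. Itga7 and Dsp, of the muscle membrane and the desmosome, rose by 1.41 and 1.17.

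**Figure D4:**
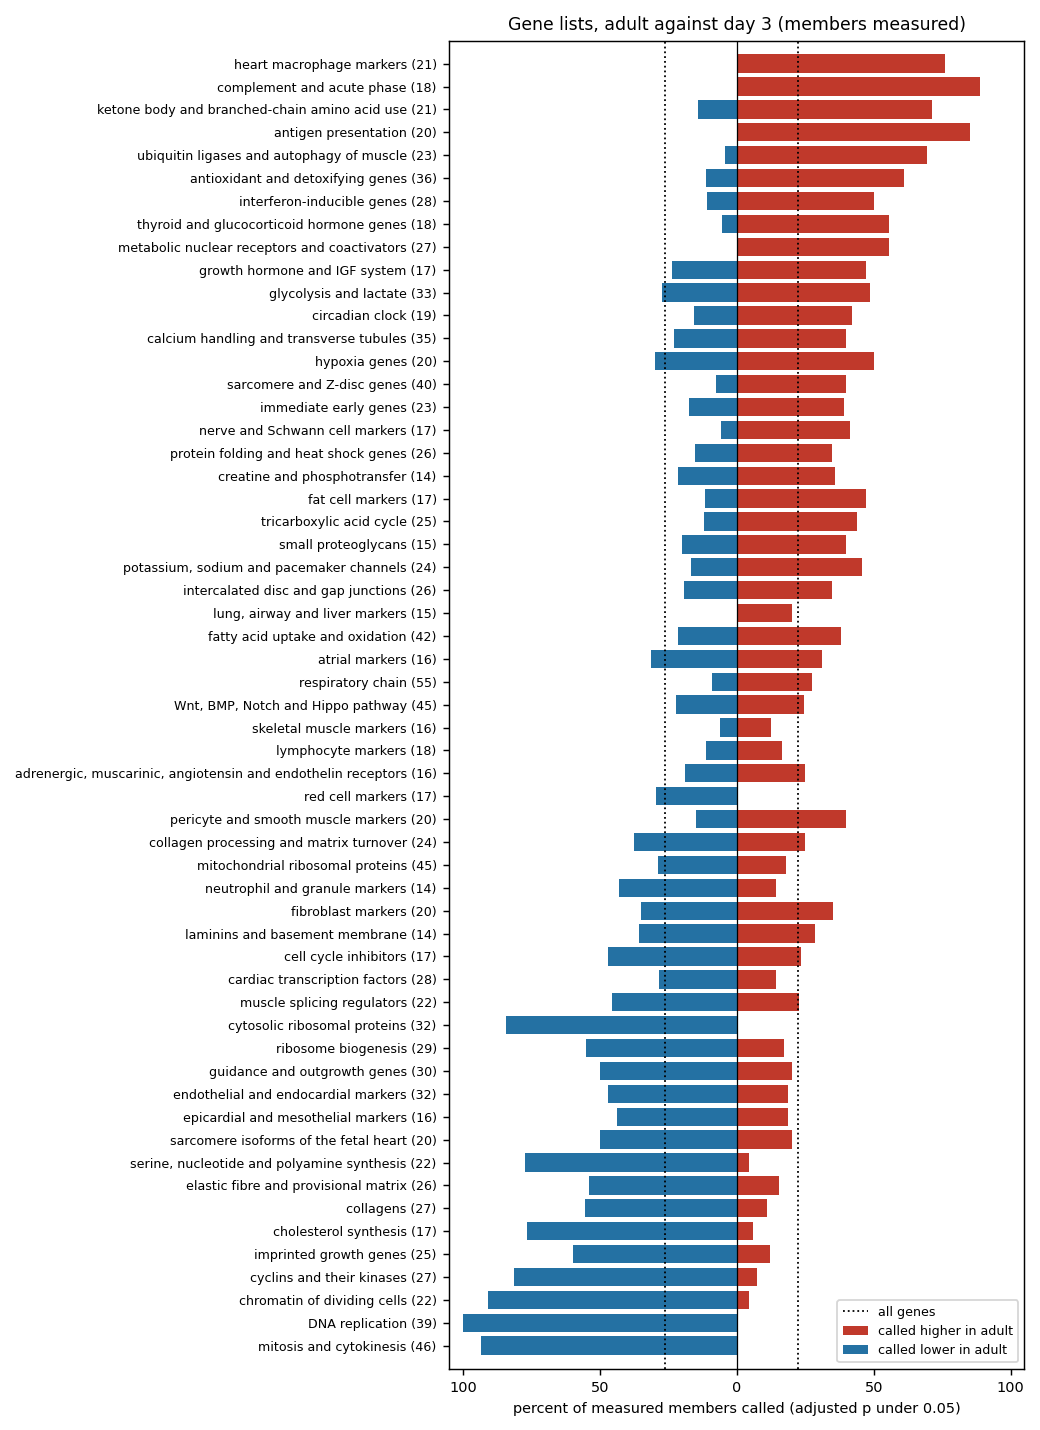
Share of measured members of each gene list called higher (right) or lower (left) in the adult, ordered by median difference, for lists of at least 14 members. Dotted lines mark the share of all genes, 22.3% higher and 26.4% lower; mitosis and DNA replication lie at the bottom and macrophage, complement and antigen presentation genes near the top.

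Fuel genes moved by group. Of 21 genes of ketone body and branched-chain amino acid use 15 rose and 3 fell, with a median of 0.99 (scaled, 17 and 1). Bdh1, the first enzyme of ketone body use, read 11.69, 12.11 and 12.11 in adult hearts, against 5.10, 5.88 and 5.53 at day 3, a difference of 6.47 (SE 0.15, adjusted p = 2.3e-20), with the day 3 values near the array medians. At E18.5 it averaged 7.63. Oxct1, the next enzyme of the pathway, rose by 1.35. Bckdha and Aldh6a1, of branched-chain amino acid breakdown, rose by 1.94 and 1.92. Fatty acid genes were mixed, with 16 of 42 higher, 9 lower and 17 not called (scaled, 24 higher and 6 lower). Both scaled counts were near the shares of all genes on that scale. Acot1, a thioesterase, and Angptl4, an inhibitor of lipoprotein lipase, fell by 3.42 and 3.26. Cpt1a, the liver form of the mitochondrial import enzyme, read 8.64, 8.78 and 8.69 in adult hearts, against 10.05, 9.99 and 10.32 at day 3. The mean over this list was 10.49 at E18.5, 11.42 at day 3 and 11.40 in the adult. Pdk4, the kinase that turns off pyruvate oxidation, was at 11.67 to 12.12 in adult hearts and 11.76 to 11.99 at day 3 and was not called. Dgat2, of triglyceride synthesis and also on the fat cell list, rose by 2.03.

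Of 33 glycolysis and lactate genes 16 rose and 9 fell (scaled, 21 and 6). The insulin-dependent glucose transporter Slc2a4 rose by 1.55 (SE 0.12), the muscle hexokinase Hk2 by 2.02 and the fetal transporter Slc2a1 by 0.42, while Hk1 was not called (0.31). Pdk3 and Aldoc fell by 2.73 and 1.89. The lactate dehydrogenase of heart, Ldhb, rose by 0.42. The muscle form Ldha was at -0.17 (adjusted p = 0.036), at 0.133 with housekeeping scaling, and not called without adult heart 1 or 2 or any 1 day 3 heart (adjusted p = 0.0571 to 0.146). Ldha was also not called in the left ventricle alone (0.131), with the replicate block (0.142) or without number 2 (0.256). Tricarboxylic acid cycle genes were higher for 11 of 25 members and lower for 3 (scaled, 24 and 0), with Pcx, pyruvate carboxylase, at 1.74. Without the right ventricles of adult hearts 2 and 3, 12 were higher and 1 lower, and without number 2 9 and 1. Of 55 respiratory chain genes 15 rose, 5 fell and 35 were not called, and the scaled counts were 50 higher and 3 lower. Genes of cytochrome oxidase moved both ways: the muscle forms Cox7a1 and Cox6a2 rose by 1.08 and 0.49, and Cox6a1 and Cox8a fell by 0.87 and 1.08. Among these only Cox6a2 and Cox6a1 are forms of the same subunit.

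Metabolic nuclear receptors and coactivators rose for 15 of 27 members and fell for 0 (scaled, 24 and 0). Rxrg, a retinoid receptor, rose by 2.15, Perm1, a muscle coactivator, by 1.82, and Ppara, the fatty acid receptor, by 1.32. Esrra was higher by 0.28 (adjusted p = 0.0337), a call lost without adult heart 1 or 3 or day 3 heart 1 or 3 (0.0926 to 0.135). The Esrra call was also lost in the right ventricle alone (0.134), with the mean of all probe sets (0.357) and with the replicate block (0.0759). Ppargc1a (0.21) was not called. Of 18 thyroid and glucocorticoid hormone genes 10 rose and 1 fell (scaled, 14 and 1). Without the right ventricles of adult hearts 2 and 3, 11 rose and 2 fell, and without number 2 7 and 2. Thrsp and Klf9, both known to respond to thyroid hormone, rose by 2.47 and 1.72. Hsd11b1, which activates glucocorticoids, rose by 3.33 with a low adult heart 2, at 9.85, 7.88 and 10.15, against 5.97, 6.03 and 5.91 at day 3. The receptor Thra fell by 0.71, but its probe set of largest variance gave 0.161 and was not called (adjusted p = 0.236), and Thrb (0.26) and Dio2 (-0.39) were not called. With the mean of all probe sets Thra was at -0.186 and also not called (adjusted p = 0.0754).

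Genes of serine, nucleotide and cholesterol synthesis fell. Of 22 genes of serine, nucleotide and polyamine synthesis 17 fell and 1 rose (scaled, 14 and 5). Of 17 cholesterol synthesis genes 13 fell and 1 rose (scaled, 12 and 2). Psat1, of serine synthesis, read 5.87, 5.74 and 6.21 in adult hearts and 8.80, 9.22 and 8.79 at day 3. Idi1 and Sqle, of the cholesterol pathway, fell by 2.50 and 2.34. Cytosolic ribosomal protein genes fell for 27 of 32 members by small amounts (median -0.33), but scaled counts were 8 lower and 2 higher. Of 29 ribosome biogenesis genes 16 fell and 5 rose (scaled, 12 and 11). Of 45 mitochondrial ribosomal protein genes 13 fell and 8 rose (28.9% and 17.8%), near the 26.4% and 22.3% of all genes. Scaling turned this to 4 lower and 25 higher, where 2792 and 10723 of all 18193 genes were lower and higher.

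Collagen and elastic fibre genes fell more often than they rose. Of 27 collagen genes 15 fell and 3 rose (scaled, 13 and 4), and of 26 elastic fibre and provisional matrix genes 14 fell and 4 rose (scaled, 11 and 7). The other matrix lists were more even. Of 24 genes of collagen processing and matrix turnover 9 fell and 6 rose (scaled, 9 and 10), and of 14 laminin and basement membrane genes 5 fell and 4 rose (scaled, 4 and 6). Of 15 small proteoglycans 3 fell and 6 rose (scaled, 3 and 8), and without number 2 4 fell and 4 rose. Col1a1, the main fibrillar collagen chain, read 8.64, 9.30 and 8.44 in adult hearts, against 11.31, 11.51 and 11.54 at day 3, and fell by 2.66 (SE 0.19, adjusted p = 2.4e-11). Col3a1 was at -1.16 (adjusted p = 0.025), a call lost without adult heart 1 or 3 or day 3 heart 1 or 2 (0.0538 to 0.09) and with housekeeping scaling (0.068). The Col3a1 call was also lost in the right ventricle alone (0.0834). Fbn2, the fibrillin of embryonic elastic fibres, fell by 4.26, elastin, Eln, by 2.27, and Cthrc1, a secreted matrix protein, by 3.73. Postn, the matrix protein periostin, read 8.62, 11.20 and 9.24 in adult hearts and 12.88, 12.85 and 12.81 at day 3, the high adult value being that of heart 2. Col8a1 rose by 2.72, with the same heart highest at 10.65.

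**Figure D5:**
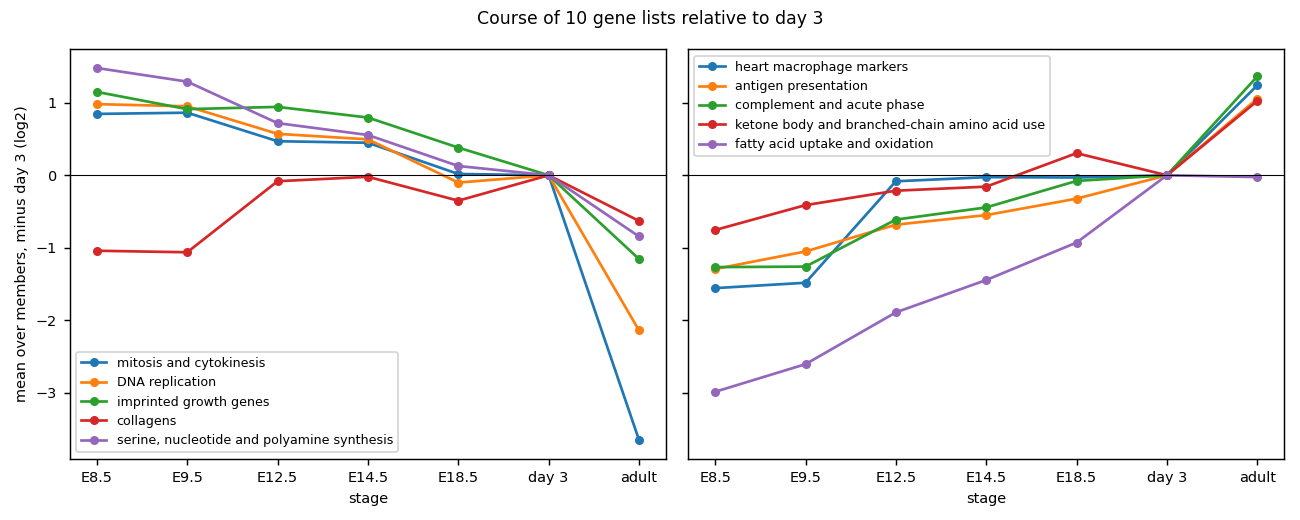
Mean over the measured members of 10 gene lists at 7 stages, as the difference from day 3 (log2). Mitosis and replication genes fell after day 3, macrophage, antigen presentation and complement genes rose after day 3, and fatty acid genes lay lower at E18.5 than at day 3.

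Genes of antigen presentation, complement and macrophages rose. Of 20 antigen presentation genes 17 rose and 0 fell, of 18 complement and acute phase genes 16 rose and 0 fell, and of 21 heart macrophage markers 16 rose and 0 fell. Scaled counts were 20, 17 and 20 higher with 0 lower. H2-Aa, a class II histocompatibility chain, read 9.56, 10.31 and 9.33 in adult hearts, against 5.33, 4.96 and 4.99 at day 3, and rose by 4.64 (SE 0.19, adjusted p = 8.2e-16). Cd163, a scavenger receptor of resident macrophages, read 7.78, 7.55 and 7.55 in adult hearts and 3.80, 3.55 and 3.73 at day 3. C1s1 and C1ra, proteases of the first complement component, rose by 3.63 and 3.06, and lysozyme, Lyz2, by 2.55. Every adult array lay above every day 3 array for 15 of the 21 macrophage markers, against 2556 of all 18193 genes. The mean of these markers was 7.71 to 8.34 on the adult arrays and 6.63 to 6.80 on the day 3 arrays, and the part of these cells in the antigen presentation and complement results was not tested. Of 18 lymphocyte markers 3 rose and 2 fell, but scaled counts were 10 higher and 1 lower. Without the right ventricles of adult hearts 2 and 3, 3 rose and 3 fell. Of 14 neutrophil and granule markers 2 rose and 6 fell, scaled counts were 5 and 5, and without number 2 1 rose and 4 fell. S100a9 and S100a8, abundant in neutrophils, fell by 2.32 and 2.21, and without number 2 S100a8 was not called (adjusted p = 0.053).

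Interferon-inducible genes rose for 14 of 28 members and fell for 3 (scaled, 22 and 1). Gbp6, a guanylate binding protein, read 9.86, 9.98 and 10.12 in adult hearts, against 6.39, 6.21 and 6.40 at day 3. Iigp1 and Gbp2, also guanosine triphosphatases of cell defence, rose by 2.65 and 2.25, while Ifit2 and Rsad2 were at -0.73 and -0.53. Scaled, neither was called (adjusted p = 0.0508 and 0.335), and Rsad2 was also not called without adult heart 1 or 2 or day 3 heart 1 or 3 (0.0616 to 0.173). Nor was Rsad2 called in the left ventricle alone (0.374), with the probe set of largest variance (0.165) or without number 2 (0.149). The core of the interferon-stimulated element, GAAA repeated after any 2 bases, on either strand, stood in the window of 12 of 20 listed genes (60.0%), against 3.63% of all measured genes with a window. Of all genes that hold it, the 12 listed ones among them, 5.73% rose and 5.34% fell at least 2-fold. Of all genes with a window 3.94% rose and 6.17% fell. Stretches of 3 listed genes that rose and hold a match follow, with the match in capitals.
Gbp2: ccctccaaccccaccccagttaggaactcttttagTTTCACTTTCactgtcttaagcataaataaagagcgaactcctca
Irgm2: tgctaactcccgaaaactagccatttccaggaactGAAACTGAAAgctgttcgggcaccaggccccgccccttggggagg
Igtp: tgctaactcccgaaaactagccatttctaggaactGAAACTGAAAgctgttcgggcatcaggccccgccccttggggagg
They lie at chr3:142620569-142620648, chr11:58214878-58214957 and chr11:58199487-58199566, all on the plus strand. The Irgm2 and Igtp stretches differ at 2 of 80 bases. They rose 2.47-fold and 2.46-fold, and related genes can share probe signal.

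Markers of other cell types moved in both directions. Of 32 endothelial and endocardial markers 15 fell and 6 rose, but scaled counts were 10 and 10. Cldn5, of endothelial tight junctions, fell by 1.45. Of 20 pericyte and smooth muscle markers 8 rose and 3 fell (scaled, 9 and 1), with Myh11, the smooth muscle myosin, at 2.74. Without number 2, 8 rose and 1 fell. Fibroblast markers were split, with 7 of 20 higher and 7 lower (scaled, 9 and 6). Gsn, Pi16 and Dpep1, of quiescent fibroblasts, rose by 2.20, 2.46 and 2.85, and Postn, Col1a1 and Fap fell. The probe set of Gsn with the largest variance gave -0.434 and was not called. Without the right ventricles of adult hearts 2 and 3, 6 rose and 9 fell. Of 16 epicardial markers 7 fell and 3 rose, the same counts as scaled. Aldh1a2, the retinoic acid enzyme of the epicardium, fell by 2.25, and its relative Aldh1a1 rose by 3.17. Atrial markers were split, with 5 of 16 higher and 5 lower (scaled, 7 and 3), and their median changed sign to -0.27 without these 2 arrays, against 0.08 with them. Of 17 fat cell markers 8 rose and 2 fell (scaled, 13 and 2). Adipoq read 4.16, 8.41 and 6.81 in adult hearts and 3.05, 3.00 and 3.27 at day 3, so its rise of 3.35 differed widely between adult hearts.

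Of 36 antioxidant and detoxifying genes 22 rose and 4 fell (scaled, 30 and 3). Ces1d, a carboxylesterase, and Fmo2, a monooxygenase, rose by 4.78 and 3.85, and Gstk1, a glutathione transferase, by 2.92. Of 23 ubiquitin ligase and autophagy genes of muscle 16 rose and 1 fell (scaled, 21 and 0), and without the right ventricles of adult hearts 2 and 3 16 rose and 2 fell. Trim54, a sarcomere ubiquitin ligase, read 12.09, 11.66 and 11.83 in adult hearts, against 8.12, 8.37 and 8.32 at day 3, and Fbxo32, which marks proteins for breakdown in muscle wasting, rose by 2.13. Among immediate early genes, which handling of tissue can raise, 9 of 23 rose and 4 fell (scaled, 15 and 1), with Fos higher by 2.93. Of 19 circadian clock genes 8 rose and 3 fell (scaled, 13 and 3). Dbp and Arntl differed between adult hearts. Dbp, an output gene of the clock, read 10.49, 9.65 and 8.02 in adult hearts and 9.06, 8.97 and 8.74 at day 3 (adjusted p = 0.27). Arntl, a core clock activator, read 8.32, 8.99 and 9.58 in adult hearts and 7.50, 7.55 and 7.64 at day 3. The adult hearts thus stood in opposite order for the 2 genes, and the time of day of collection is not given in the sources used here.

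Other genes with large differences lay outside these lists. Plet1os, a non-coding RNA gene, read 10.16, 10.39 and 9.74 in adult hearts, against 3.58, 3.72 and 3.46 at day 3, where its probe set was dim. Cpxm2, a carboxypeptidase-like gene, rose by 5.88 and Art1, a muscle ADP-ribosyltransferase, by 4.86. Aox1, an aldehyde oxidase, and Retnla, a marker of alternatively activated macrophages, rose by 4.03 and 3.86. Penk, the enkephalin precursor, read 8.99, 6.85 and 9.87 in adult hearts and 4.83, 4.75 and 4.90 at day 3. Among the falls, Cited1, a transcriptional coactivator, read 4.66, 4.62 and 4.91 in adult hearts, against 10.37, 10.41 and 10.18 at day 3. The lysophosphatidic acid receptor Lpar3 fell by 5.30 and Ddc, the decarboxylase of dopamine and serotonin synthesis, by 4.91. Hey2, a Notch target of compact ventricular muscle, fell by 2.83. Some genes differed between adult hearts in both ventricles. Micalcl read 5.16, 11.61 and 5.56, and Trim12c read 7.99, 8.25 and 3.81 (both picked after their values were seen).

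Within each ventricle the counts were similar. In the left ventricle 7833 genes were called (43.1%) and in the right 8264 (45.4%). The difference between the changes was tested gene by gene in a fit of all 45 arrays, where 2 of 18193 genes were called (0.011%) and 843 had an unadjusted p under 0.05. Dcpp1, a gene of a secreted protein family, fell by 0.88 in the left and by 3.39 in the right ventricle (adjusted p of the difference 0.00066 by limma). It read 8.54, 8.35 and 7.38 in day 3 right ventricles, against 5.48 to 5.65 in day 3 left ventricles and 4.29 to 5.16 on adult arrays. Cdca3, a mitosis gene, fell by 5.28 in the left and by 4.23 in the right ventricle. When only the 12 adult and day 3 arrays were fitted, 0 genes were called by limma (499 at an unadjusted p under 0.05), and the adjusted p of these genes was 0.348 and 1. Neither gene was therefore called in a fit that takes its spread from these 2 stages alone.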

How the data were processed

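Ventricle RNA was hybridised to Affymetrix whole-genome mouse arrays. The authors deposited log2 values that RMA gives for each probe set, as the submitters' processing notes name it; its version is not given in the sources used here. Control probe sets were left out, and each of 18193 genes was read from the probe set whose mean across the 45 arrays was highest. No detection calls were used. Array medians of 5.35 to 5.47 show that shifts common to most genes cannot be seen.

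Left and right ventricle of a number were averaged, and 27 values of 9 stages were fitted together in limma 3.58.1 under R 4.3.3 (18 residual degrees of freedom, two-sided tests, Benjamini-Hochberg adjustment). The difference between ventricles was fitted on 45 arrays as 15 groups (30 residual degrees of freedom). The labels describe the replicates as biological. The number of arrays limits the precision.

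The compared stages, 62 gene lists and rules were chosen with earlier results of these data known. The rule named the 20 largest rises and falls among called genes whose arrays did not overlap, up to 6 called members per list in its main direction and 3 in the other, the 10 smallest p of the ventricle test, and a set of fixed genes. Of 1525 listed genes 1400 were matched, and the others were not analysed here. Replicate numbers did not pair adult with day 3 hearts: the correlations of deviations were -0.056, 0.174 and -0.00775. Left and right of a number correlated at 0.223, 0.33 and -0.0956 in the adult and 0.167, 0.0274 and 0.0912 at day 3. Fits were tested on simulated data. With the spread of these groups the simulated tests made more false calls than the threshold implies, most so for the ventricle test, and with 1 spread for all groups they stayed close to it or under it. In 1 draw with the spread of these groups, 20 of 188 stage calls and 30 of 159 ventricle calls were false. The simulation changed few genes and gave adult and day 3 groups a common spread, so these shares do not carry over to the calls above. After the false calls were seen, a fit of the adult and day 3 values alone was added for the ventricle test.

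Promoter sequences were those of RefSeq (GRCm38.p6). Alternatives are given in the closing section. Python 3.11.15 with pandas 2.3.3, NumPy 2.4.6 and Matplotlib 3.10.9 made the tables and plots.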

Additional observations from a re-analysis of the deposited data

Results flagged for a closer look

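For 2 genes the change from day 3 to the adult differed between the ventricles by the test of the difference itself in the fit of all arrays. For Dcpp1 the left minus right difference of the changes was 2.51 (log2), its fall being larger on the right. For Cdca3 it was -1.06 (log2). Every adult array lay below every day 3 array for both genes, as for 3617 of all 18193 genes (19.9%), which does not compare the ventricles. For Dcpp1 the adult arrays and the day 3 left ventricles read near or below the array medians. With only the 12 adult and day 3 arrays in the fit, the adjusted p of limma was 0.348 for Dcpp1 and 1 for Cdca3. Over the other alternatives it was 6.54e-05 to 0.0376 for Dcpp1 and 0.00391 to 0.131 for Cdca3.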

How the results depend on the processing

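The counts of called genes stayed within 1.5 times under a trended robust eBayes, a fit of the adult and day 3 values alone (8791 called), single ventricles (7532 left, 8284 right), the heart as a random block on 12 arrays (9316), a filter on dim genes, other ways to combine probe sets, a threshold of 0.01 and the arrays that stood apart left out. With the replicate block, 8330 genes were called. The filter on dim genes kept 13710 genes that exceeded the median of all values on at least 3 arrays. Of these 3453 were called higher and 4806 lower, against 4066 and 4806 without the filter. Their median difference was -0.0387, against 0.0255 over all genes. Leaving out each replicate gave 7956 to 8650 called, 3532 to 3921 higher, 4424 to 4729 lower and 1791 to 1945 at least 2-fold. Housekeeping scaling gave 13515 called, 10723 higher and 2792 lower, and left 15 lists with more members lower than higher, against 24. A test against a 2-fold difference called 967 genes, 344 higher and 623 lower. The ventricle test called 2 genes with the replicate block, 1 to 20 without single replicates, 36 without the right ventricles of adult hearts 2 and 3, and 0 with only adult and day 3 arrays. The cause was not tested. The planned rule for leaving out arrays (a list of another tissue over 1.5 above the other replicates) met 0 arrays and gave no value.

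Of genes called in the main fit and the alternative, 129 had opposite signs with the probe set of largest variance. With the mean of all probe sets 30 did. When all probe sets were fitted, 524 genes had probe sets called in opposite directions. Genes named here turned direction as follows. With the probe set of largest variance, Cenpf was at -2.72, Cit at -0.77, Gja1 at -0.283, Gsn at -0.434, Igf2bp3 at -3.985 and Thra at 0.161. With the mean of all probe sets, Cenpf was at -0.876, Cit at -0.0971, Gja1 at -0.00711 and Igf2bp3 at -2.258. With housekeeping scaling, Ldha was at 0.133, Lin28b at 0.0435, Myl2 at 0.231 and Nppb at 0.103. In the left ventricle alone, Cenpf was at -0.0913 and Igf2bp3 at -0.097. Cenpf was at -0.11 without the right ventricle of adult heart 2. Leaving out single replicates gave -0.074 to 0.113 for Cenpf, -0.0874 to 1.15 for Dbp, -0.416 to 0.0566 for Nppb and -0.0611 to 0.163 for Pdk4.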

Other observations

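Genes of tissue structure and protein care outside the groups above also moved. Of 30 guidance and outgrowth genes 15 fell and 6 rose, and after housekeeping scaling 12 fell and 12 rose (scaled counts). Tubb2b, a tubulin of growing nerve cells, read 6.54, 6.42 and 7.06 in adult hearts, against 11.09, 11.37 and 11.24 at day 3, and Epha4, a guidance receptor, rose by 2.11. Of 22 muscle splicing regulators 10 fell and 5 rose (scaled, 9 and 7), and without number 2 10 fell and 3 rose. Mbnl3, the fetal muscleblind form, fell by 2.75, and Rbfox1, a splicing factor of muscle and nerve, rose by 1.59. Of 17 nerve and Schwann cell markers 7 rose and 1 fell (scaled, 14 and 1), with Kcna1, a potassium channel of axons, higher by 1.53 and Uchl1, a neuronal hydrolase, lower by 2.28. Without the right ventricles of adult hearts 2 and 3, 8 of these markers rose and 2 fell, and without number 2 7 and 2.

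Of 20 hypoxia genes 10 rose and 6 fell (scaled, 12 and 3, near the shares of all genes on that scale). The oxygen sensing hydroxylase genes Egln3 and Egln1 rose, Egln3 by 1.79, and Hif1a, whose product they mark, fell by 1.27. Of 26 protein folding and heat shock genes 9 rose and 4 fell (scaled, 18 and 2), with Hspb8, a small heat shock gene of muscle, at 2.18. The natriuretic peptide genes Nppa (-0.70) and Nppb (-0.20) were not called, and Corin, the protease that activates their products, rose by 2.10. Nppa read 11.49, 14.02 and 12.75 in adult hearts and 13.12, 13.59 and 13.65 at day 3.

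Of 9160 probe sets without a gene name, 2288 were called when all probe sets were fitted, 1795 higher and 493 lower in the adult. At least 2-fold, 204 of them changed. In the fit of genes 8872 of 18193 were called (48.8%), 4066 higher and 4806 lower, and 1829 changed at least 2-fold. The signal of the unnamed probe sets was not shown to be above background.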
